A study of Mus with 4 samples.

Results

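Skeletal muscle contractile and metabolic genes were followed across 4 mouse tumor arrays as 41 listed genes, all of which the array measured among its 19505 named genes. The list was chosen on measured values of these same arrays, because genes of muscle stood out on 1 of them. Its levels and differences below are therefore a description, with no test. Renca is a mouse line of renal adenocarcinoma, and its cells had been injected under the skin of the flank 2 weeks before the tumors were taken. They expressed either shNrf3, a hairpin RNA directed at the transcription factor Nrf3, or the control hairpin shCtrl. Hosts were male BALB/cCrSlc mice, bought at 4 to 6 weeks of age and fed for 17 weeks on HFD-60, a high-fat diet (HFD), or on CE-2, the normal chow (NC). The groups are shNrf3-HFD, shCtrl-HFD, shNrf3-NC and shCtrl-NC, all from the same cell line and strain.

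Each group has 1 array, so no spread between replicates can be had and no p-value is given. The number of arrays limits the precision, and the labels leave it unsaid how many tumors went into an array and whether a hairpin line was 1 clone or a pool. Levels are log2 values, on which a difference of 1 is 2-fold. Background was taken from the 5222 negative control rows, whose medians lay between 5.35 and 5.39 and whose 95th percentiles lay between 8.97 and 9.35. Levels, and means and sums of levels, are given as read. For differences, a reading below its own array's control median was set to that median. A difference against such a reading is a bound ("at least" or "or lower"), and none is given where both readings lay below it. Differences run shNrf3 minus shCtrl or HFD minus NC, and a gene is counted at 2-fold or more.

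The hairpins' target, Nfe2l3, which encodes Nrf3, read 6.05 on the shNrf3-HFD array and 5.77 on the shCtrl-HFD array, a difference of 0.28. It read 5.56 on the shNrf3-NC array and 6.22 on the shCtrl-NC array, a difference of -0.66. The target thus read lower under shNrf3 in NC and not in HFD. All 4 readings lay above the control median but below the 75th percentile of the controls, which was between 6.58 and 6.82. Readings this near background do not show whether the knockdown was present in either diet. Every direction below rests on the arrays' labels. Of 11 epithelial and renal tubule genes, 6 read above the control median on every array, among them Krt18, Cdh1 and Epcam. The tubule genes Pax2, Pax8, Lrp2, Cdh16 and Havcr1 lay below it on all 4 arrays.

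Skeletal muscle fibers are long, multinucleated cells filled with sarcomeres, in which myosin thick filaments pull on actin thin filaments. Troponin and tropomyosin gate that pull when calcium leaves the sarcoplasmic reticulum. Fast fibers, slow fibers and developing or regenerating fibers use different isoforms of myosin, its light chains and troponin. Fibers draw on creatine phosphate, glycogen and glycolysis for ATP, and the myogenic factors switch on the program in muscle precursors.

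On the array labelled shNrf3-NC many of these genes read far above the other 3 arrays. In NC, 13 of 41 (31.7%) were 2-fold or more higher in shNrf3 than in shCtrl, beside 6.9% of all genes. Myl3 alone was 2-fold lower, beside 2.48% of all genes. The 13 were Acta1, Myl1, Mylpf, Myh4, Myh8, Tnnt3, Tnni2, Actn2, Ckm, Des, Ttn, Atp2a1 and Eno3. Of these, 12 (all but Eno3) also stood 2-fold or more above both HFD arrays, which held for 138 of all 19505 genes (0.708%). Acta1, Myh8, Myl1 and Myh4 held ranks 1 to 4 of all genes in the excess of that array over the highest of the other 3. Since the list was chosen on this contrast, nothing is read from these shares.

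**Figure D1:**
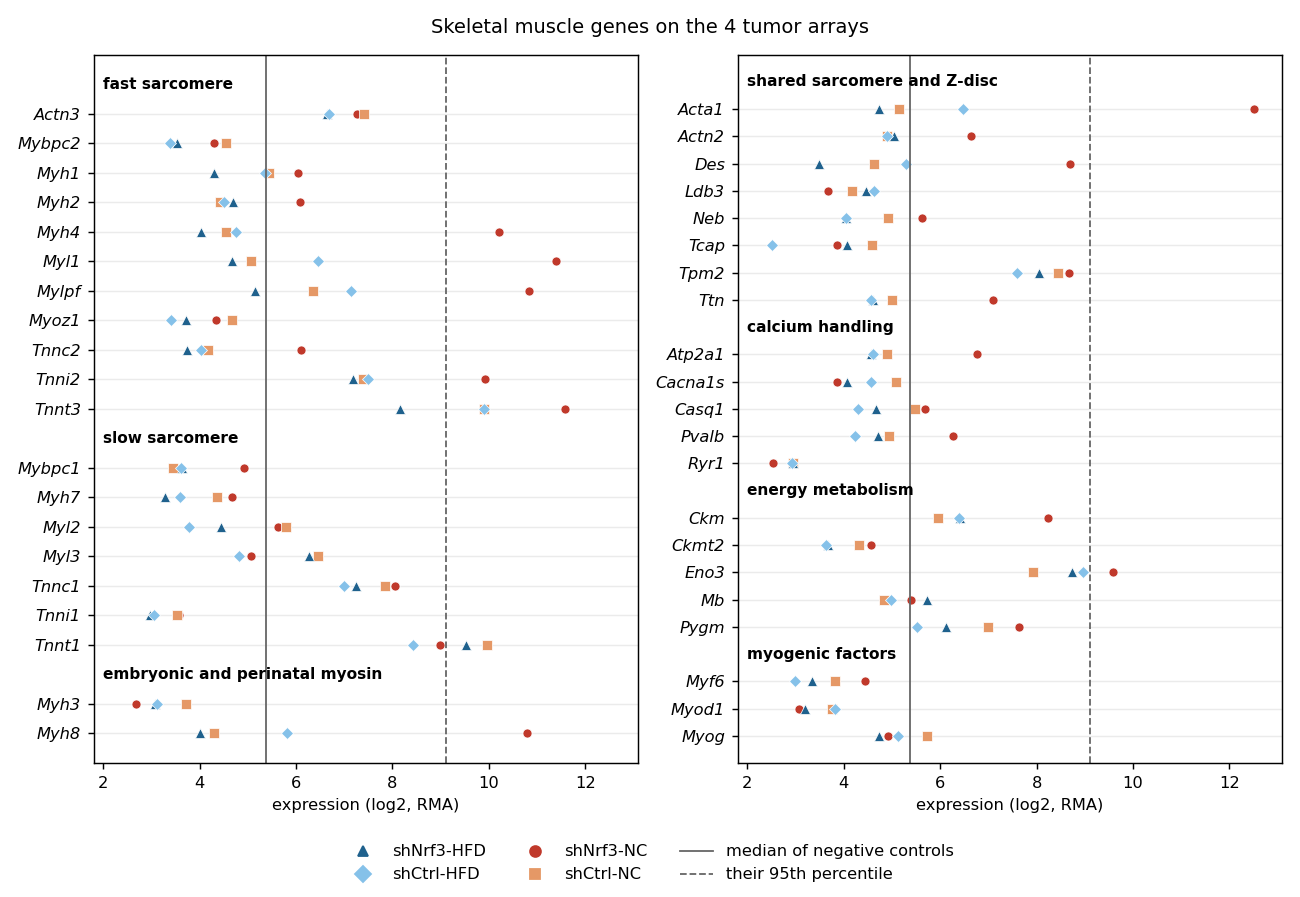
Levels of the 41 muscle genes on each of the 4 arrays, with expression (log2, RMA) on the horizontal axis and the genes grouped by role. Each point is 1 array, the solid line is the median of the negative control rows and the dashed line their 95th percentile, both averaged over the arrays; the red points of shNrf3-NC lie apart on the right for Acta1 (12.51), Myl1 (11.38), Mylpf (10.83), Myh8 (10.78) and Myh4 (10.21).

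The plot of levels by gene also shows how much of the list read below background. On all 4 arrays 13 of the 41 genes (31.7%) lay below the control median, as did 7516 of all 19505 genes (38.5%). Genes above the control median numbered 11 on shNrf3-HFD, 14 on shCtrl-HFD, 26 on shNrf3-NC and 15 on shCtrl-NC. Above the 95th percentile of the controls were 1, 1, 8 and 2 genes on the same arrays. Of all 19505 genes, 10795, 10703, 10751 and 11056 lay above the control median on these arrays. Above the 95th percentile were 4431, 4951, 4750 and 3948 of all genes. Among the 41 genes, 9 lay above the control median on shNrf3-NC and on no other array. They were Myh2, Myh4, Tnnc2, Actn2, Des, Ttn, Neb, Atp2a1 and Pvalb. In a bulk tumor, fewer muscle cells and less muscle RNA per cell cannot be told apart.

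Of the 11 genes of fast sarcomeres, 5 were 2-fold or more higher in shNrf3 than in shCtrl tumors in NC, and none was 2-fold lower. The shares of all genes in NC, 6.9% higher and 2.48% lower, stand beside this count and those of the other roles below. Myl1, an essential light chain of fast myosin, read 4.67 on the shNrf3-HFD array, 6.46 on shCtrl-HFD, 11.38 on shNrf3-NC and 5.06 on shCtrl-NC. In NC that is a difference of at least 6.00, or at least 64.0-fold. Mylpf, the regulatory light chain of fast fibers, read 5.16 on the shNrf3-HFD array, 7.13 on shCtrl-HFD, 10.83 on shNrf3-NC and 6.36 on shCtrl-NC. Both NC readings of Mylpf lay above background, and its difference was 4.47 (22.1-fold). For both light chains shNrf3-NC was the highest array. Mylpf lay below background on shNrf3-HFD alone, and Myl1 on both shNrf3-HFD and shCtrl-NC.

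Myh4 encodes the myosin heavy chain of the fastest fibers, type IIb. It read 4.02 on the shNrf3-HFD array, 4.76 on shCtrl-HFD, 10.21 on shNrf3-NC and 4.56 on shCtrl-NC. It was thus above background on shNrf3-NC alone, with a difference in NC of at least 4.83, or at least 28.4-fold. The heavy chains of the other fast fibers were less distinct. Myh2, of type IIa fibers, read 4.68 on the shNrf3-HFD array, 4.50 on shCtrl-HFD, 6.08 on shNrf3-NC and 4.43 on shCtrl-NC, at least 0.70 in NC. Myh1, of type IIx fibers, read 4.30 on the shNrf3-HFD array, 5.37 on shCtrl-HFD, 6.05 on shNrf3-NC and 5.44 on shCtrl-NC, a difference of 0.61 in NC. Neither Myh1 nor Myh2 passed 2-fold in NC, although shNrf3-NC was the highest array for both.

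The fast troponins moved the same way by smaller steps. Tnni2, the inhibitory subunit, read 7.18 on the shNrf3-HFD array, 7.49 on shCtrl-HFD, 9.92 on shNrf3-NC and 7.38 on shCtrl-NC, which in NC is 2.54 (5.80-fold). Tnnt3, the tropomyosin-binding subunit, read 8.15 on the shNrf3-HFD array, 9.90 on shCtrl-HFD, 11.57 on shNrf3-NC and 9.89 on shCtrl-NC. Its difference was 1.68 in NC (3.20-fold), with both shCtrl arrays at nearly the same level. Tnnc2, the calcium-binding subunit, read 3.74 on the shNrf3-HFD array, 4.03 on shCtrl-HFD, 6.10 on shNrf3-NC and 4.18 on shCtrl-NC, at least 0.71 in NC. Tnnc2 therefore left background on shNrf3-NC alone and did not pass 2-fold.

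The other fast genes did not stand out on shNrf3-NC. Actn3, the α-actinin of fast Z-discs, read 6.64 on the shNrf3-HFD array, 6.68 on shCtrl-HFD, 7.26 on shNrf3-NC and 7.41 on shCtrl-NC, a difference of -0.15 in NC. Both NC arrays stood above both HFD arrays for Actn3. Mybpc2, the fast myosin-binding protein C, and Myoz1, a calcineurin-binding Z-disc protein, lay below the control median on every array.

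Slow-fiber genes gave no 2-fold higher reading among 7 in NC. Tnnt1, the slow troponin T, read 9.52 on the shNrf3-HFD array, 8.43 on shCtrl-HFD, 8.99 on shNrf3-NC and 9.96 on shCtrl-NC. Its difference was 1.10 in HFD and -0.98 in NC, the second just short of 2-fold, so the construct with the higher reading changed with the diet. Myl3, the light chain of slow and ventricular muscle, read 6.27 on the shNrf3-HFD array, 4.81 on shCtrl-HFD, 5.06 on shNrf3-NC and 6.46 on shCtrl-NC. That gives at least 0.91 in HFD and -1.12 or lower in NC. Myl3 was above background only on shNrf3-HFD and shCtrl-NC, the arrays on which Tnnt1 was also highest.

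Tnnc1, the troponin C of slow and cardiac muscle, read 7.24 on the shNrf3-HFD array, 6.99 on shCtrl-HFD, 8.05 on shNrf3-NC and 7.85 on shCtrl-NC, a difference of 0.20 in NC. Myl2, the regulatory light chain of slow and ventricular muscle, read 4.45 on the shNrf3-HFD array, 3.77 on shCtrl-HFD, 5.63 on shNrf3-NC and 5.80 on shCtrl-NC, a difference of -0.16 in NC, or 0.02 with cyclic loess. For both genes the NC arrays stood above the HFD arrays and the constructs lay close together. The slow myosin heavy chain Myh7, the slow troponin I Tnni1 and the slow myosin-binding protein C Mybpc1 lay below the control median on all arrays. Mean log2 levels over the 7 slow genes were 5.34 on shNrf3-HFD, 4.89 on shCtrl-HFD, 5.84 on shNrf3-NC and 5.91 on shCtrl-NC. Over the 11 fast genes they were 5.07 on shNrf3-HFD, 5.74 on shCtrl-HFD, 8.00 on shNrf3-NC and 5.81 on shCtrl-NC.

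Myh8, the perinatal myosin heavy chain, which newborn and regenerating fibers use, behaved like the fast genes. It read 4.02 on the shNrf3-HFD array, 5.82 on shCtrl-HFD, 10.78 on shNrf3-NC and 4.31 on shCtrl-NC, at least 5.40 in NC or at least 42.2-fold. Myh3, the embryonic heavy chain, stayed below the control median on every array, between 2.68 and 3.71. Both belong to the myosin cluster of mouse chromosome 11, where Myh3, Myh2, Myh1, Myh4, Myh8 and Myh13 are consecutive protein-coding genes in the RefSeq annotation of GRCm38.p6. Myh13, which encodes the extraocular myosin heavy chain and was looked up after its neighbours' values were seen, read 5.65 on the shNrf3-HFD array, 5.25 on shCtrl-HFD, 5.33 on shNrf3-NC and 5.86 on shCtrl-NC. Within the cluster the large NC differences thus fell on the neighbours Myh4 and Myh8. These heavy chains are close in sequence, so how far a probe set reads 1 of them alone is uncertain.

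**Figure D2:**
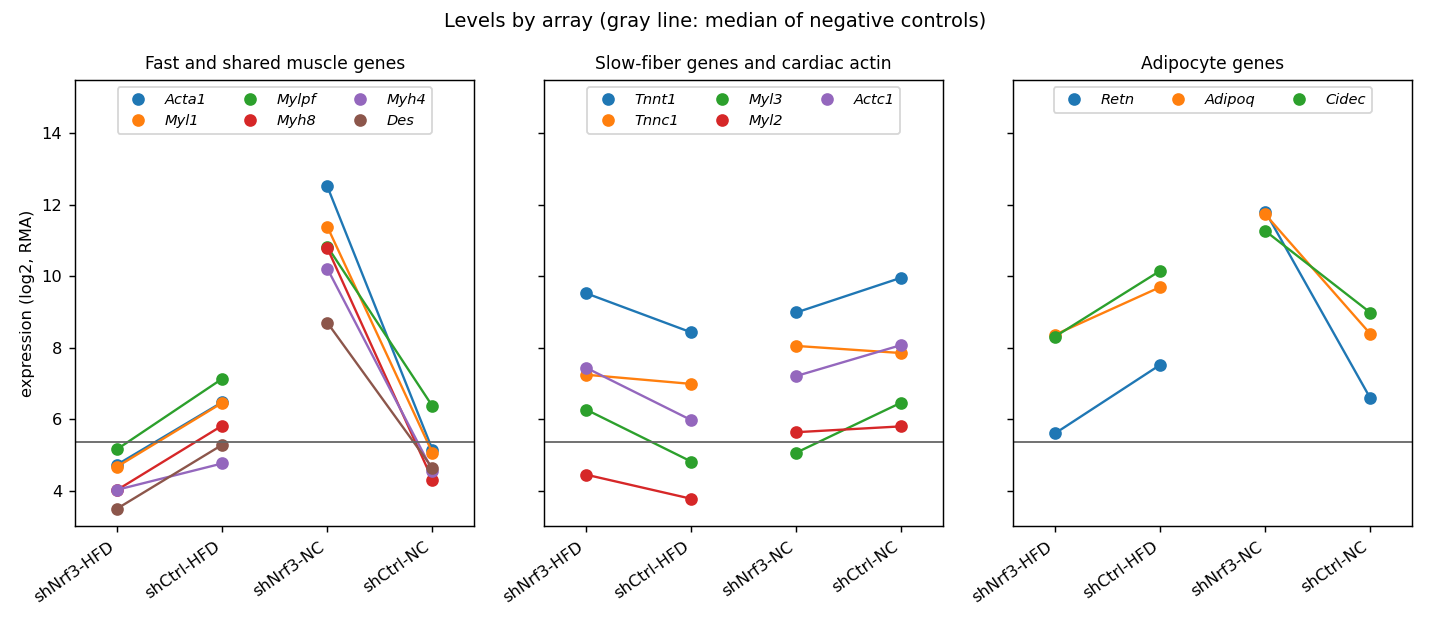
Levels by array (expression, log2, RMA) of 6 fast or shared muscle genes, 5 slow-fiber or cardiac genes and 3 adipocyte genes, with a line joining the 2 constructs of a diet and the gray line at the mean control median. Acta1 and its group peak on shNrf3-NC. Elsewhere they lie near or below background, except Mylpf (7.13), Acta1 (6.48) and Myl1 (6.46) on shCtrl-HFD and Mylpf (6.36) on shCtrl-NC. Tnnt1 and Myl3 tilt in opposite directions in the 2 diets, and Retn, Adipoq and Cidec also peak on shNrf3-NC.

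Among 8 genes common to all sarcomeres, 4 were 2-fold or more higher in shNrf3 than in shCtrl tumors in NC, with a median difference of 0.75 over the 8. Acta1, the actin of skeletal thin filaments, gave the largest NC difference of all 19505 genes. It read 4.73 on the shNrf3-HFD array, 6.48 on shCtrl-HFD, 12.51 on shNrf3-NC and 5.15 on shCtrl-NC, a difference in NC of at least 7.13 and a ratio of at least 139.8-fold. Acta1 was above background on shNrf3-NC and, by far less, on shCtrl-HFD. Its coding sequence is close to that of the cardiac actin gene Actc1. Actc1 itself read 7.44 on the shNrf3-HFD array, 5.97 on shCtrl-HFD, 7.21 on shNrf3-NC and 8.07 on shCtrl-NC, so it did not follow Acta1.

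Des encodes desmin, the intermediate filament that ties Z-discs together. It read 3.50 on the shNrf3-HFD array, 5.28 on shCtrl-HFD, 8.70 on shNrf3-NC and 4.63 on shCtrl-NC, at least 3.31 in NC or at least 9.95-fold. Ttn, the giant spring protein titin, read 4.62 on the shNrf3-HFD array, 4.57 on shCtrl-HFD, 7.09 on shNrf3-NC and 5.01 on shCtrl-NC, at least 1.71 in NC. Des and Ttn were both above background on shNrf3-NC alone.

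Actn2, the α-actinin of all striated Z-discs, showed the same layout at lower readings. It read 5.04 on the shNrf3-HFD array, 4.89 on shCtrl-HFD, 6.64 on shNrf3-NC and 4.89 on shCtrl-NC, at least 1.25 in NC. Neb, the thin-filament ruler nebulin, read 4.05 on both HFD arrays, 5.63 on shNrf3-NC and 4.92 on shCtrl-NC, at least 0.25 in NC. Tpm2, a tropomyosin that smooth muscle and other contractile cells also make, read 8.04 on the shNrf3-HFD array, 7.59 on shCtrl-HFD, 8.67 on shNrf3-NC and 8.45 on shCtrl-NC, a difference of 0.22 in NC. Tpm2 was above background everywhere and did not stand out on shNrf3-NC. Ldb3 and Tcap, both anchored at the Z-disc, lay below the control median on all arrays.

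Calcium handling was represented by 5 genes, of which 1 passed 2-fold in NC. Atp2a1, the calcium pump of the fast-fiber sarcoplasmic reticulum, read 4.57 on the shNrf3-HFD array, 4.61 on shCtrl-HFD, 6.75 on shNrf3-NC and 4.89 on shCtrl-NC, at least 1.37 in NC. Pvalb, the calcium buffer parvalbumin of fast fibers, read 4.71 on the shNrf3-HFD array, 4.23 on shCtrl-HFD, 6.26 on shNrf3-NC and 4.95 on shCtrl-NC, at least 0.87 in NC. Atp2a1 and Pvalb left background on shNrf3-NC alone.

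Casq1, the calcium store protein calsequestrin of fast fibers, read 4.67 on the shNrf3-HFD array, 4.30 on shCtrl-HFD, 5.69 on shNrf3-NC and 5.47 on shCtrl-NC, a difference of 0.21 in NC. The release channel Ryr1 and its voltage sensor Cacna1s lay below the control median on all arrays. Readings of Ryr1 were between 2.53 and 2.95, with the lowest on shNrf3-NC.

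Of the 5 genes of energy metabolism, 2 were 2-fold or more higher in shNrf3 tumors in NC. Ckm, the cytosolic muscle creatine kinase, read 6.42 on the shNrf3-HFD array, 6.40 on shCtrl-HFD, 8.23 on shNrf3-NC and 5.95 on shCtrl-NC, a difference of 2.28 in NC (4.84-fold). Eno3, the muscle form of the glycolytic enzyme enolase, read 8.74 on the shNrf3-HFD array, 8.96 on shCtrl-HFD, 9.57 on shNrf3-NC and 7.92 on shCtrl-NC, a difference of 1.65 in NC (3.15-fold). For Ckm and Eno3 alike shCtrl-NC was the lowest array. The HFD readings of Eno3 were within 1 log2 unit of shNrf3-NC.

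Pygm, the muscle glycogen phosphorylase, read 6.12 on the shNrf3-HFD array, 5.51 on shCtrl-HFD, 7.63 on shNrf3-NC and 7.00 on shCtrl-NC, a difference of 0.63 in NC. Mb, the oxygen store myoglobin of slow and oxidative fibers, read 5.73 on the shNrf3-HFD array, 4.97 on shCtrl-HFD, 5.40 on shNrf3-NC and 4.84 on shCtrl-NC, at least 0.02 in NC. Mb was at or near background on every array. Ckmt2, the mitochondrial creatine kinase of muscle, lay below the control median on all 4.

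Neither of the myogenic factors Myod1, which commits cells to the lineage, and Myf6, active in mature fibers, read above the control median on any array. Myog, the factor of differentiating myoblasts, read 4.73 on the shNrf3-HFD array, 5.13 on shCtrl-HFD, 4.92 on shNrf3-NC and 5.73 on shCtrl-NC. Its difference in NC was -0.39 or lower, with shCtrl-NC the single array above background. With readings this low, the array does not show whether the myogenic factors followed the contractile genes.

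The members closest to the 2-fold line in NC were Actn2, Atp2a1 and Eno3 above it and Pvalb, Tnnc2 and Myh2 below it. On the lower side Myl3 (-1.12) was past it and Tnnt1 (-0.98) short of it, and with cyclic loess between arrays this order turned, to -0.98 for Myl3 and -1.14 for Tnnt1. Over all 41 genes the median NC difference was 0.21, beside 0.00 over all genes. Of the 13 higher genes, 8 had a shCtrl-NC reading below the control median, so that most of their sizes are bounds.

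In HFD tumors few of these genes differed by 2-fold between the constructs. The count was 4 of 41 genes 2-fold or more lower, beside 3.69% of all genes, and 1 higher, beside 1.24%. Lower were Acta1 (-1.09 or lower), Myl1 (-1.07 or lower), Mylpf (-1.74 or lower) and Tnnt3 (-1.75, 0.297-fold). Higher was Tnnt1, the slow troponin T, by 1.10 (2.14-fold). Myh8, the perinatal myosin, gave -0.43 or lower, Tnni2 -0.32, Eno3 -0.21 and Ckm 0.03. Of the 13 genes that were 2-fold higher in NC, 5 had both HFD readings below the control median, and 7 of the other 8 read lower in shNrf3, by sizes that were mostly under 2-fold or bounds. Tnnt3, Tnni2, Eno3 and Ckm were above background on both HFD arrays. With background set at the 75th percentile of the controls, Tnnt3 was the 1 gene left 2-fold lower. The median over the 41 genes was 0.00, as over all genes. Pairs below background on both arrays, entered as 0, made up 25 of the 41 genes and 42.0% of all genes. The 0.00 is therefore not a measured lack of difference. With no floor the medians were -0.0002 and -0.0034.

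**Figure D3:**
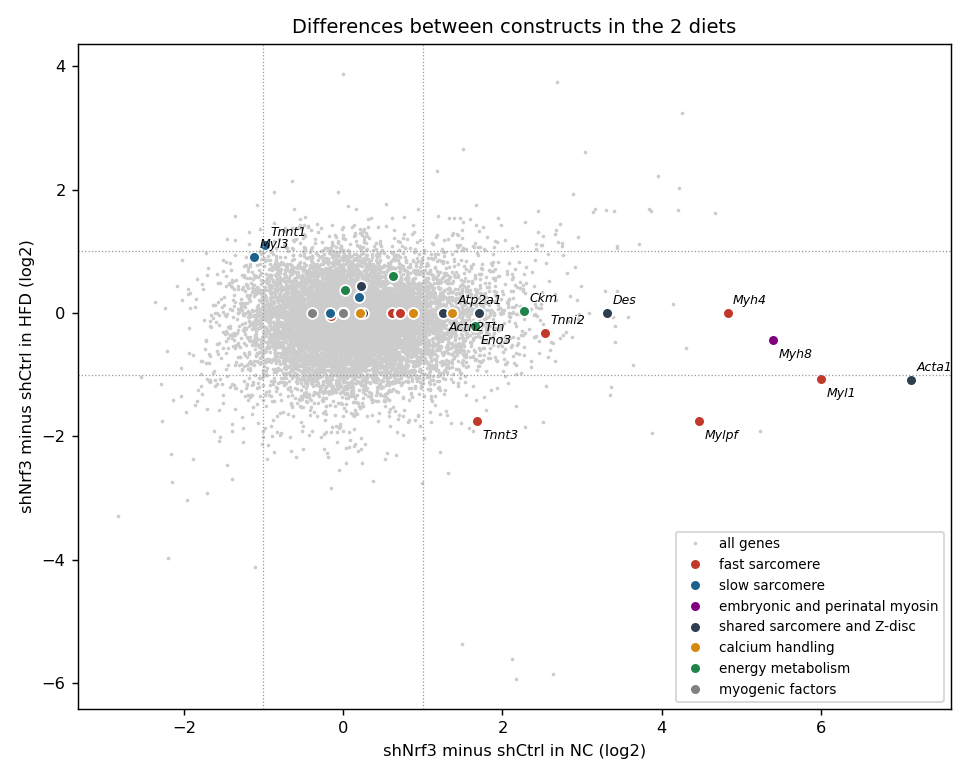
Difference between constructs in NC (horizontal) against that in HFD (vertical), both shNrf3 minus shCtrl on the log2 scale, for the 41 muscle genes by role and for all genes in gray, with dotted lines at 2-fold. Acta1, Myl1, Mylpf and Tnnt3 lie at the lower right, 2-fold or more higher in NC and 2-fold or more lower in HFD.

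The diet comparisons use the same 4 arrays, and each shares an array with both construct comparisons, so they add no independent reading. With shNrf3, 13 of 41 genes were 2-fold or more lower in HFD than in NC, beside 2.67% of all genes, and 0 were higher, beside 0.984%. The sizes were -7.12 or lower for Acta1, -6.00 or lower for Myl1, -5.44 or lower for Mylpf, -5.40 or lower for Myh8 and -4.82 or lower for Myh4. Tnnt3 gave -3.42, Tnni2 -2.74, Ckm -1.81 and Pygm -1.51, all with both readings above background. The median over the 41 genes was -0.63, beside 0.00 over all genes. Myl3 and Tnnt1, of slow fibers, went the other way by at least 0.92 and by 0.54.

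With shCtrl, where shNrf3-NC plays no part, 3 genes were 2-fold or more higher in HFD, beside 7.59% of all genes, and 3 were lower, beside 2.13%. Higher were Acta1 (at least 1.09), Myl1 (at least 1.07) and Eno3 (1.03), and Mylpf followed with 0.77. Lower were Tnnt1 (-1.53), Pygm (-1.48) and Myl3 (-1.11 or lower). Pygm, the glycogen phosphorylase, was thus lower in HFD by a like amount with either construct. The slow and cardiac Tnnc1 (-0.81 with shNrf3, -0.86 with shCtrl), the fast Actn3 (-0.63 and -0.73) and Tpm2 (-0.63 and -0.85) were lower in HFD with both constructs too, short of 2-fold. All 4 genes were above background on every array. With cyclic loess the shCtrl calls of Eno3 (0.74) and Myl3 (-0.96) were lost, and Tnnc1 (-1.06) and Tpm2 (-1.11) passed 2-fold.

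**Figure D4:**
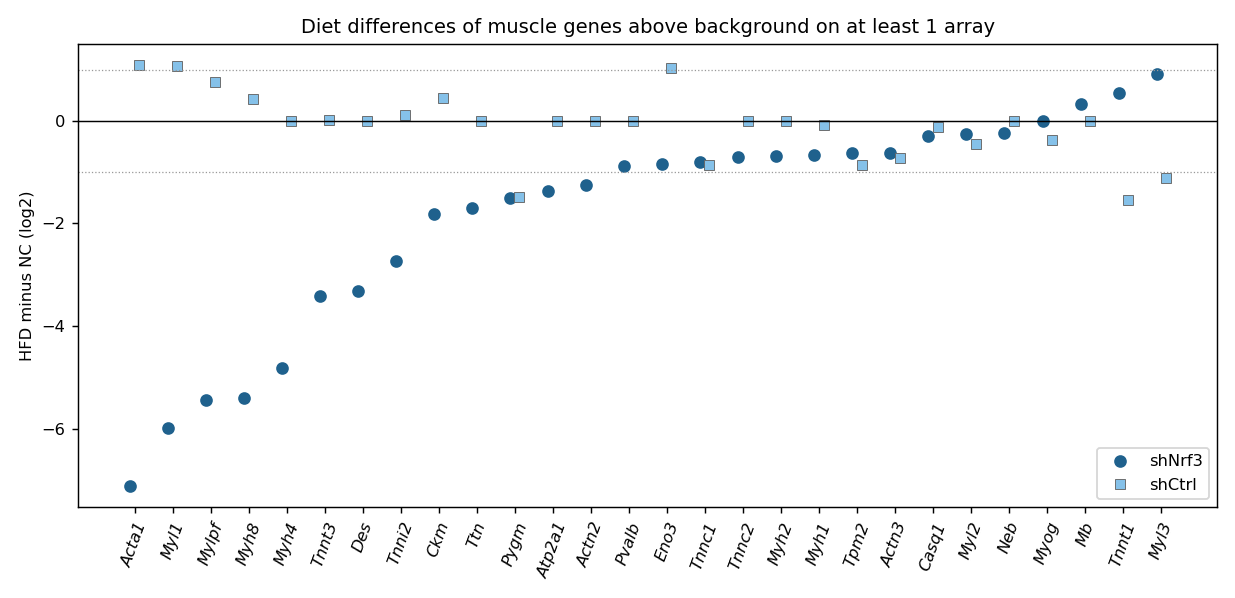
HFD minus NC (log2) for the 28 muscle genes above the control median on at least 1 array, with circles for shNrf3 and squares for shCtrl, ordered by the shNrf3 difference, and dotted lines at 2-fold. Acta1 and Myl1 lie at -7.12 and -6.00 with shNrf3 and just above 1 with shCtrl, while Pygm lies near -1.5 with both.

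Further muscle genes outside the 41 were read from 5 lists, which held 105 genes, 99 of them measured. In NC 8 of the 99 (8.08%) were 2-fold or more higher in shNrf3, close to the 6.9% of all genes. Stac3, a part of the calcium release complex, was the 1 lower gene (1.01%), beside 2.48% of all genes. On all 4 arrays 48 lay below the control median. In HFD 0 were 2-fold higher, beside 1.24% of all genes, and 1 (1.01%), the LIM protein gene Fhl1, was lower, beside 3.69%. Both HFD readings lay below the control median for 61 of the 99. A 2-fold higher reading in NC, as for Acta1, was thus seen in few of the 99 genes. With 48 of them below background, how the muscle program as a whole moved was not tested.

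Of 29 further sarcomere, M-band and Z-disc genes, 4 were higher in NC. Cryab, the small heat shock chaperone that guards desmin and is also made in other tissues, read 8.05 on the shNrf3-HFD array, 8.25 on shCtrl-HFD, 10.22 on shNrf3-NC and 6.80 on shCtrl-NC, a difference of 3.42 in NC. Pdlim3, a partner of α-actinin, read 4.07 on the shNrf3-HFD array, 4.16 on shCtrl-HFD, 7.59 on shNrf3-NC and 5.35 on shCtrl-NC, at least 2.20 in NC. Trim63, the ubiquitin ligase of muscle atrophy, read 5.70 on the shNrf3-HFD array, 5.05 on shCtrl-HFD, 7.42 on shNrf3-NC and 5.50 on shCtrl-NC, a difference of 1.92 in NC. All 3 were highest on shNrf3-NC, and the fourth was Tmod4. Fhl1 and Tmod4 are named after their values were seen. Myom1 and Myom2, which build the M-band, were among 16 genes of that list below the control median on every array.

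Of 18 further genes of calcium handling and the triad, Trdn, the anchor protein triadin, was higher in NC by 1.14, and Stac3 differed by -1.17. Of 19 further genes of muscle metabolism, Pfkm, the muscle phosphofructokinase, was higher in NC by 1.85 and Gys1, the muscle glycogen synthase, by 1.77. The adenylosuccinate synthase Adssl1 differed by 0.77. Readings of Pfkm were 7.95 on the shNrf3-HFD array, 7.27 on shCtrl-HFD, 8.16 on shNrf3-NC and 6.31 on shCtrl-NC, so that, as with Eno3, shCtrl-NC was the low array.

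Of 23 further myogenic regulators and fusion genes, Mustn1, a small nuclear protein of muscle and skeleton, was the 1 higher in NC. It read 4.30 on the shNrf3-HFD array, 4.72 on shCtrl-HFD, 7.01 on shNrf3-NC and 4.46 on shCtrl-NC, at least 1.62 in NC. The satellite cell factors Pax7 and Myf5, the fusion protein Mymk and the acetylcholine receptor subunits Chrna1, Chrnd, Chrne and Chrng lay below the control median on all arrays. None of 10 dystrophin complex genes was 2-fold different in NC. The largest was Dtna, dystrobrevin, at -0.73 or lower.

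Genes of other tissues that lie near a flank tumor moved between the same arrays. Beside the counts for each cell type below, 1.24% of all genes were 2-fold higher and 3.69% lower in HFD. In NC these shares were 6.9% and 2.48%. Of 17 adipocyte genes, 8 were 2-fold or more lower and none was higher in shNrf3 than in shCtrl tumors in HFD, while in NC 8 were higher and Aqp7 was lower. Retn, the adipokine resistin, read 5.60 on the shNrf3-HFD array, 7.52 on shCtrl-HFD, 11.81 on shNrf3-NC and 6.58 on shCtrl-NC. Adipoq, adiponectin, read 8.36 on the shNrf3-HFD array, 9.70 on shCtrl-HFD, 11.73 on shNrf3-NC and 8.38 on shCtrl-NC. Both adipokines were highest on shNrf3-NC, like Acta1, and second on shCtrl-HFD. The log2 of the summed adipocyte list was 14.66 on shNrf3-HFD, 16.10 on shCtrl-HFD, 16.51 on shNrf3-NC and 15.01 on shCtrl-NC. That of the 41 muscle genes was 11.52, 11.75, 14.38 and 12.05 on the same arrays. Leptin (Lep), Plin4, Cidea, Slc36a2 and Ucp1 lay below the control median throughout. The part of adipose tissue in the muscle readings was not tested.

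Of 16 cardiac and smooth muscle genes, 1 was higher in HFD, Actc1 (1.46), and 1 in NC, the natriuretic peptide Nppb (1.16). The cardiac genes Myh6, Myl7, Tnni3, Nppa and Ryr2 and the smooth muscle genes Myocd and Lmod1 lay below the control median on all 4 arrays. The log2 of the list's sum ranged from 12.95 to 13.20. Genes of skin and keratinocytes, the other tissue at an injection site, were 2-fold or more lower for 7 of 13 in HFD and for Krt14 and Krt10 in NC, with none higher in either diet. Their mean log2 level was 4.81 on shNrf3-HFD, 6.38 on shCtrl-HFD, 4.59 on shNrf3-NC and 5.50 on shCtrl-NC. The skin mean was thus lowest on shNrf3-NC, where the muscle mean was highest (6.64). It was nearly as low on shNrf3-HFD, where the muscle mean was 4.92, beside 5.08 on shCtrl-HFD. On these arrays 30 and 27 of the 41 muscle genes lay below the control median, so both muscle means rest mostly on background readings. Below the control median were 11 of the 13 skin genes on shNrf3-NC and 10 on shNrf3-HFD. Any relation of skin to muscle readings was not tested.

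Of 11 macrophage genes, Itgam and Lyz2 were 2-fold or more higher in HFD and 7 in NC, with none lower in either diet. The log2 of their sum was 16.58 on shNrf3-HFD, 15.80 on shCtrl-HFD, 17.06 on shNrf3-NC and 15.64 on shCtrl-NC. Of 14 fibroblast and pericyte genes, 9 were lower in HFD, 4 were lower in NC and none was higher in either diet. Of 11 endothelial genes, 3 were lower in HFD, while in NC 6 were lower and Eng was higher. Of 7 nerve and Schwann cell genes, none passed 2-fold in HFD and Pmp22 was higher in NC. The epithelial list gave 1 lower gene of 11 in each diet, Krt7 in HFD and Epcam in NC (-1.56). The part of these cell types in the muscle readings was not tested.

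**Figure D5:**
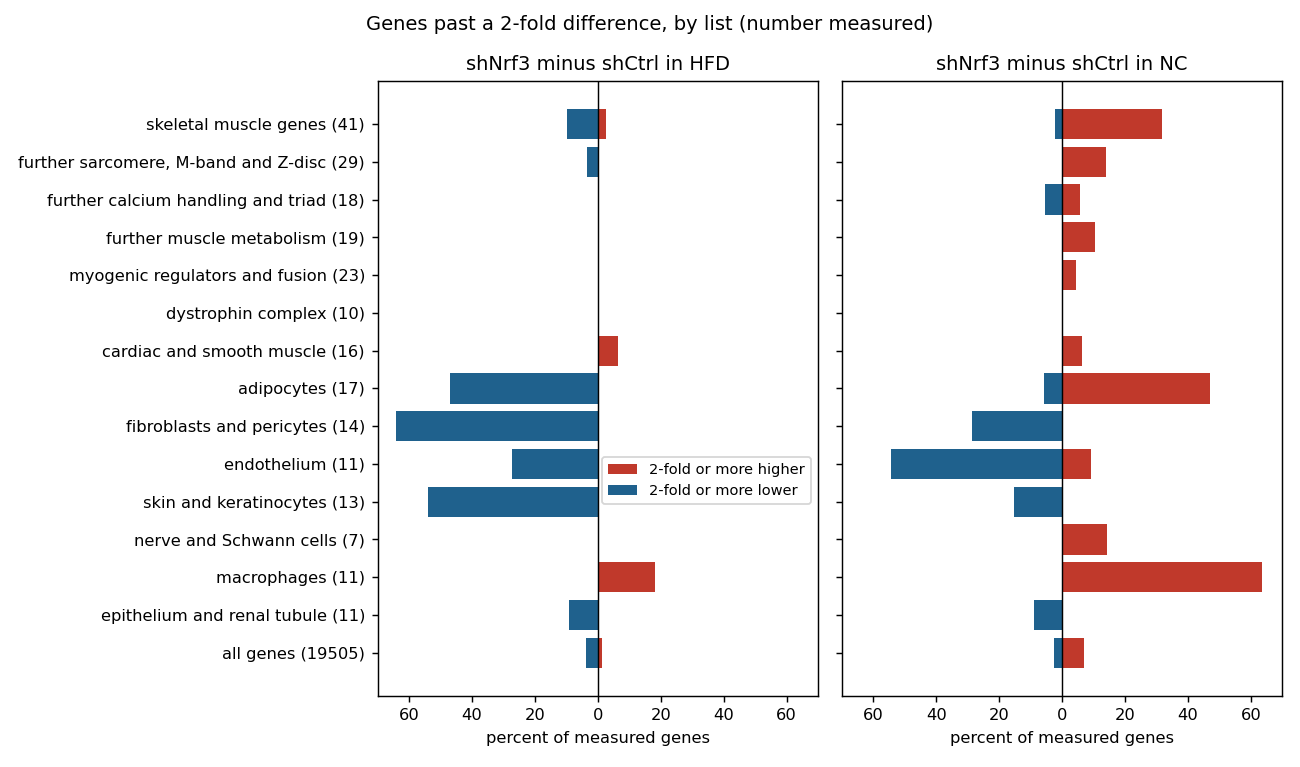
Percent of measured genes that were 2-fold or more higher (right, red) or lower (left, blue) in shNrf3 than in shCtrl, in HFD and in NC, for the 41 muscle genes, 5 further muscle lists, 8 lists of other cell types and all genes, with the number measured in brackets. In NC the skeletal muscle genes (31.7% higher), adipocyte and macrophage genes extend to the right, while in HFD the adipocyte, fibroblast and skin genes extend to the left.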

How the data were processed

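The deposited table holds log2 values that the authors made with Affymetrix Expression Console and RMA, per the submitters' processing notes, from 100 ng of total tumor RNA per array, per the labels' protocols. RMA brings the arrays to a shared distribution, so a level is relative to its array. An array has no read depth. The build behind the probes was not given in the sources used here, so no coordinates are printed. Gene names came from the platform's annotation, which gave 1 gene symbol to 19572 probe sets and 19505 genes. For 55 genes with several probe sets, none of them among the 41, the one with the highest mean was used. For differences, readings below the array's negative control median were set to it, and differences of 1 or more were counted, with no test. All list members, the 3 genes of each further list with the largest absolute NC difference and Nfe2l3 may be named, and Tmod4, Fhl1, Aqp7, Lyz2, Eng and Krt7 were added after their values were seen. The members and lists were chosen with earlier results of these data known. Counting was tested on simulated data. Alternatives included cyclic loess (limma 3.58.1, R 4.3.3), other floors, median centring, a filter on level and a 1.5-fold threshold.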

Additional observations from a re-analysis of the deposited data

Results flagged for a closer look

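The difference between constructs was 2-fold or more in opposite directions in the 2 diets for 4 muscle genes. The difference in HFD minus that in NC was -8.21 or lower for Acta1, -7.07 or lower for Myl1, -6.21 or lower for Mylpf and -3.43 for Tnnt3, on the log2 scale. Each group has 1 array, so this change with diet was not tested. Of the 4, only Tnnt3, the fast troponin T, was above the control median on all 4 arrays.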

How the results depend on the processing

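Of the 7 alternatives run, signs were compared in those that kept all genes and the 2-fold threshold. A change of floor cannot carry a difference past 0, and no muscle gene had several probe sets. Only cyclic loess and median centring could thus turn a sign. No difference of 2-fold or more changed sign under either. Smaller ones did 7 times, in 6 genes, all with a reported size of 0.16 or less. With cyclic loess these were Myl2 in NC (0.02), Actn3 in HFD (0.05), and Tnnt3 (-0.31), Tnni2 (-0.13) and Myh1 (0.12) in the shCtrl diet comparison. With median centring they were Ckm in HFD (-0.02) and Myh1 in the shCtrl diet comparison (0.03). The count of muscle genes 2-fold or more higher in shNrf3 in NC was 13 as reported, 14 with cyclic loess, 17 with no floor, 10 with the floor at the 75th percentile of the controls, 9 among the 14 genes past a filter on level and 18 at 1.5-fold. Acta1, Myl1, Myh8, Myh4, Mylpf, Des, Tnni2, Ckm, Tnnt3 and Eno3 (10 of 13) passed in each of the 6 settings that kept all genes and the 2-fold threshold, the reported one included. Ttn, Atp2a1 and Actn2 did not pass at the higher floor. Loess added Pvalb (1.03) and Tnnt1 (-1.14) in NC and ended the call of Myl3 (-0.98), and in the shCtrl diet comparison it ended those of Eno3 (0.74) and Myl3 (-0.96) and added Tnnc1 (-1.06) and Tpm2 (-1.11). Without a floor, NC gave 3 lower genes and a median of 0.61, HFD 3 higher and 7 lower, the shNrf3 diet comparison 1 higher, 23 lower and a median of -1.19, and the shCtrl one 8 lower and a median of -0.44. At the higher floor, NC gave 0 lower and a median of 0.00, HFD 1 lower (Tnnt3, so that Acta1, Myl1 and Mylpf no longer counted), the shNrf3 diet comparison a median of 0.00, and the shCtrl one 1 higher and 1 lower. Past the filter, NC gave 0 lower and a median of 1.98, and the shNrf3 diet comparison a median of -2.27. At 1.5-fold, NC gave 2 lower, HFD 3 higher, the shNrf3 diet comparison 1 higher and 21 lower, and the shCtrl one 6 lower. A floor or filter changes which genes can be counted. Over all genes, higher against lower calls in NC were 1346 and 484 (73.6% higher) as reported and 1087 and 626 (63.5%) with loess. In HFD they were 241 and 719 (25.1%) and 314 and 540 (36.8%) with loess. In the shCtrl diet comparison they were 1481 and 415 (78.1%) and 904 and 615 (59.5%). No paired analysis was possible because each group has 1 array and the labels carry no replicate numbers.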

Other observations

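Among genes outside the muscle lists, chosen after the values were seen, the excess of shNrf3-NC over the highest of the other 3 arrays was 4.29 for Retn, the adipokine resistin. It was 3.87 for Cxcl13, a chemokine that draws B cells, 3.37 for Saa3, an acute phase protein, and 2.46 for Lyve1, a marker of lymphatic endothelium and some resident macrophages. For Hsph1, a heat shock chaperone, it was 2.15. In the order of that excess Retn and Cxcl13 held ranks 5 and 6, next after Myh4 at rank 4. Saa3 held rank 8, Lyve1 12 and Hsph1 17, with other genes between them.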
